A study of Mus musculus with 4 samples.

Results

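PRO-seq of mouse liver nuclei yielded 2282 intergenic enhancers, and 788 of them (34.5%) are described here: those with exactly 1 center of bidirectional transcription, a center that is not in the FANTOM5 atlas, and a listed distance of more than 50 kb to the start of the closest active gene. PRO-seq maps RNA polymerase that is engaged in transcription by labelling the nascent RNA in a nuclear run-on, here in nuclei of whole livers at postnatal day 14. The WT mice were C57BL/6, Alb-Cre+ and Hdac3+/+, and the KO mice were C57BL/6, Alb-Cre+ and Hdac3 fl/- or fl/fl, so that both groups carried the Cre transgene. The albumin promoter drives Cre in hepatocytes, and liver cells in which Cre is not active keep their floxed Hdac3. In fl/- mice the other allele is null in every cell, so there the floxed allele is the only intact copy. Each genotype had 2 libraries of nuclei pooled from several mice, so p-values measure the spread between pools. The enhancers were called by the authors on the reads of all 4 libraries together, and the list holds no reads per library, so it gives the position of each enhancer and its gene links but no change between genotypes. Changes between genotypes were therefore measured on the 510 genes named as the closest active gene of at least 1 of the 788 enhancers.

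Enhancers are DNA elements that raise transcription of a promoter that can lie far away on the same chromosome. RNA polymerase also starts at active enhancers, usually in both directions from a center, and the short-lived enhancer RNA that results is visible in nascent RNA but hardly in total RNA. FANTOM5 located enhancers by the capped ends of such RNAs, and 4DGenome collects contacts between distant chromosome segments from Hi-C, ChIA-PET and 4C. HDAC3 is a histone deacetylase that acts in the NCoR and SMRT corepressor complexes and is known in liver for its control of lipid metabolism.

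A reference sequence was at hand where an enhancer center fell inside an annotated RefSeq promoter window, which spans 250 bases before to 50 bases after a transcript start. This was so for 41 of the 788 enhancers (5.2%), of which 25 lay in a window of a long noncoding RNA, 17 in a window of a protein-coding gene and 6 in a window of the closest gene itself. Not every window that holds the center of an enhancer whose closest gene is named below or stands in a functional gene list is printed. The windows printed below are of this kind and were chosen after their values were seen. They are RefSeq sequences of GRCm38.p6, written 5′ to 3′ on the strand of the annotated transcript, and capitals mark every match, on either strand, to 12 short motifs of factors known in liver. For hepatocyte factors these are TGTTTAC of FOXA proteins, AAAGTCC as the HNF4 core and the HNF1 half-site GTTAAT. For broader families they are the nuclear receptor half-site AGGTCA, the C/EBP motif TTGCNNAA, the NFI half-site TTGGCA and AGATAA of GATA factors. Signal-dependent factors are covered by TGANTCA for AP-1 and the STAT motif TTCNNNGAA. The remaining motifs are the E-box CACGTG, the ETS motif CCGGAAG and the CTCF core AGGGGGC. Where matches overlap, the capitals run together.
Prox1 enhancer, start of Gm30446, chr1:190048474-190048773, plus strand: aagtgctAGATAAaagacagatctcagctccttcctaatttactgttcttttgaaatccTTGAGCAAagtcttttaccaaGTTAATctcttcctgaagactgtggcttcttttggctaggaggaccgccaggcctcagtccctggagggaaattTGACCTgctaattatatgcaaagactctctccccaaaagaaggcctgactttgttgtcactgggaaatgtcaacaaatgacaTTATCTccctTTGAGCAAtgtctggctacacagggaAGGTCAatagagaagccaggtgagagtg
Sdc1 enhancer, start of Gm33418, chr12:8831112-8831411, minus strand: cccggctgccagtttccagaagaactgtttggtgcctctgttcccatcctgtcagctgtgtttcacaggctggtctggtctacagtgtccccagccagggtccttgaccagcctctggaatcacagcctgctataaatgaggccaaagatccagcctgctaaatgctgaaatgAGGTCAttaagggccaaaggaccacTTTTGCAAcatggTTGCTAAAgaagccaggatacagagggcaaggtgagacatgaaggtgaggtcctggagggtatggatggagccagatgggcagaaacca
Hpcal1 enhancer, start of Gm9222, chr12:17881623-17881922, plus strand: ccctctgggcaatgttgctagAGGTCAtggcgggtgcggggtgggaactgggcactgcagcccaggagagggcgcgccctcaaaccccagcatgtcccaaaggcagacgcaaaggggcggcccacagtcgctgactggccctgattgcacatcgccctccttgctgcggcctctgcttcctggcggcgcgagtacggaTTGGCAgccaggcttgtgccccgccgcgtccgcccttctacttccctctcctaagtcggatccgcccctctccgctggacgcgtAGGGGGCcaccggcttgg
Kdm6a enhancer, start of Gm14636, chrX:19237801-19238100, minus strand: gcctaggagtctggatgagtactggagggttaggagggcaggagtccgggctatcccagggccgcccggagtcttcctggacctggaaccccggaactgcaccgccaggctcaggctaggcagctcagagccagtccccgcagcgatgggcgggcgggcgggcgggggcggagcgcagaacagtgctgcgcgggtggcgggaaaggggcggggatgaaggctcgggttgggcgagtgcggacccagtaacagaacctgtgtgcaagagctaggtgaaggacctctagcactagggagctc
The enhancers are labelled by the closest active gene that the list names. For the Kdm6a enhancer that start lay 1073916 bp away. The start of Chst7, a gene active by the filter used here, lay nearer, at 820867 bp. The center of the Prox1 enhancer is base 215 of its window. That window holds 7 matches, of which 2 are the nuclear receptor half-site, 2 the C/EBP motif, 2 the GATA motif and 1 the HNF1 half-site. The center of the Sdc1 enhancer is base 174 of its window, which is the first base of a nuclear receptor half-site match. The Hpcal1 window holds 3 matches in 67.7% GC, and the Kdm6a window holds none of the 12 motifs in 67.3% GC. Among the windows not printed is the promoter of Lcor, which holds the center of an enhancer of Lcor itself. It holds none of the 12 motifs either, in 81% GC.

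Of the 32817 RefSeq promoter windows, 16.3% hold the nuclear receptor half-site, against 9 of the 45 windows with a center of these enhancers (20.0%). The 45 windows hold 41 centers, so some windows overlap at the same center. Overlapping windows of Gm33418 at the Sdc1 enhancer share the same half-site, which is counted in each of them. The GATA motif was in 8 of the 45 windows (17.8%) and in 11.2% of all windows, and the HNF4 core was in none of the 45 and in 4.21% of all. Median GC content was 55.3% in the 45 windows and 52.7% in all windows. A match is a run of letters and not a bound site. The windows are also the subset that lies at annotated starts, so the shares do not describe the other enhancers, whose sequence was not read here.

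The enhancers were compact, with a median length of 2052.5 bp (quartiles 1651 and 2909 bp). The range ran from 280 bp near Samd9l, an interferon-regulated gene, to 40731 bp near Sh2d4a, and 27 enhancers (3.4%) exceeded 10 kb. By comparison the 274 listed enhancers with several centers had a median of 7779 bp, and the 723 new single-center enhancers within 50 kb had 2195 bp. The center sat near the middle of most regions, at a median of 48.8% of the length (quartiles 37.5% and 59.3%), and 31 centers (3.93%) lay in the outer 10% at either end. Of the 27 enhancers over 10 kb, 15 had such an off-center position. The longest, at chr8:68166950-68207681, had its center at 68206790, close to the end of the region and inside the annotated gene Psd3. The other 2 of the 3 longest were 34707 bp near Zmiz1 and 32226 bp near Srbd1, and both centers lay in annotated long noncoding RNAs.

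The distance itself was fixed by the selection and is given as a description. The listed distance runs from the nearer end of the region to the start of the closest active gene, and its median was 121630 bp (quartiles 77887 and 199246 bp). More than 100 kb separated 497 of the 788 enhancers (63.1%) from that start, 196 lay beyond 200 kb, 54 beyond 500 kb and 7 beyond 1 Mb. Just inside the threshold were enhancers at 50246 bp from Ms4a7 and 50260 bp from Strbp, the latter with its center 64 bp from another annotated start of Strbp, and just outside it were new single-center enhancers at 49890 bp from Pias1 and 49882 bp from Wdr5. The farthest, at chr3:24782740-24784417, was assigned to Ect2 over 2369461 bp, although the start of Nlgn1, a gene of the table that was not active, lay 1369569 bp away. Its center lay 250 bp from an annotated start of Naaladl2. The next were 1556306 bp from Hpcal1 and 1327688 bp from Zeb2. Over all 788 enhancers, 157 (19.9%) had a start of some gene of the table within 50 kb. Of these, 64 had a start of a gene active by the filter used here within 50 kb. A start of some gene of the table lay inside 20 enhancers, and the median distance to the nearest start of any activity was 84909 bp.

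**Figure D1:**
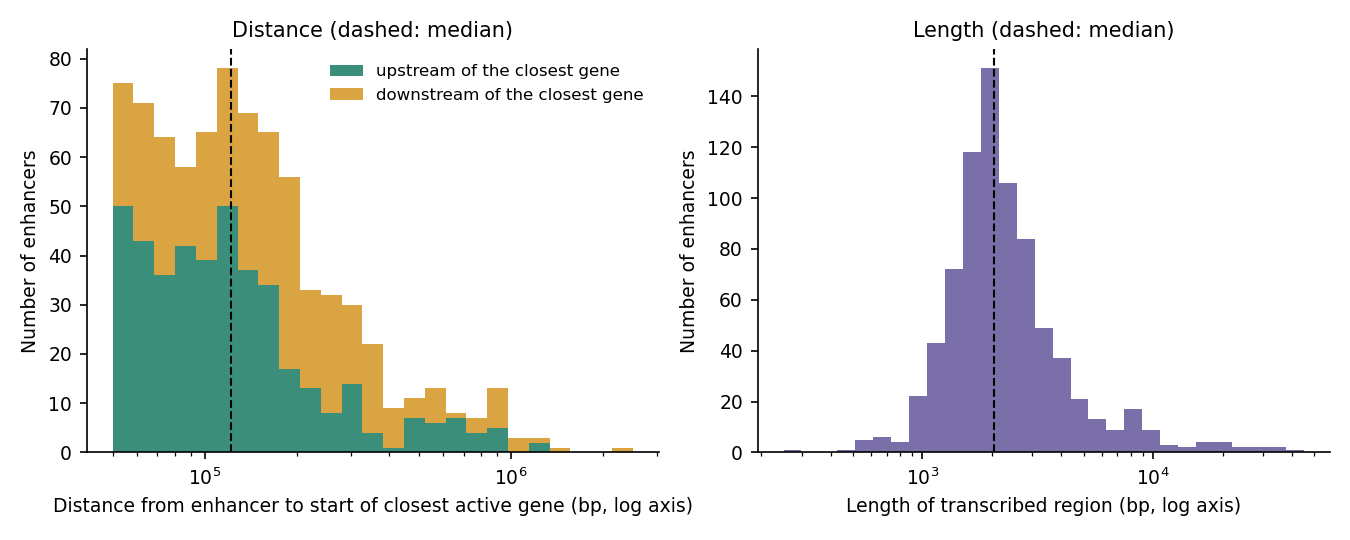
Number of distal enhancers by listed distance to the start of the closest active gene (left, bp on a log axis, split by side of the gene) and by length of the transcribed region (right, bp on a log axis), with medians dashed. Distances start at the 50 kb threshold with a median of 121630 bp, and lengths gather around a median of 2052.5 bp.

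The enhancers were spread over both sides of their closest genes: 419 of 787 (53.2%) lay upstream of the gene start, against 88.9% of the new single-center enhancers within 50 kb and 60.4% of the FANTOM5 single-center enhancers beyond 50 kb. The enhancer caller left out regions from the gene to a set distance past its end, which limits how close a downstream enhancer can come. The upstream share was 63.6% for distances of 50 to 100 kb, 53.8% for 100 to 200 kb, 31.7% for 200 to 500 kb and 50% beyond 500 kb. They occurred on every autosome and the X chromosome, from 72 on chromosome 1 to 17 on X. Their share of the listed enhancers was highest on chromosome 18, with 40 of 81 (49.4%). The nearest other listed enhancer was a median of 39577 bp away, and 421 enhancers (53.4%) had another within 50 kb, 228 of them within 10 kb. No test was made of these differences between classes of enhancers.

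Many lay in or near transcripts of the GENCODE annotation, some of them of genes that the gene table also holds, such as Psd3 and Strbp. In GENCODE M21, 218 centers (27.7%) were inside a gene, of which 149 were in long noncoding RNAs and 68 in protein-coding genes, and 54 were in exons. Within 500 bp of an annotated transcript start lay 113 centers (14.3%), 61 at long noncoding RNA starts and 37 at protein-coding starts. Without these 113, 675 enhancers remained. The share within 500 bp of a start was 14.1% for new single-center enhancers within 50 kb, 5.8% for FANTOM5 single-center enhancers beyond 50 kb and 3.7% for those within 50 kb. An annotated start at the center does not say whether the transcript is an enhancer RNA or an independent gene.

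The listed contacts included the closest gene for a minority of the enhancers. 4DGenome gave at least 1 contacting gene for 749 of the 788 enhancers (95.1%), with a median of 11 genes and up to 109. The closest gene was among them for 298 of the 749 (39.8%), against 61.5% for new single-center enhancers within 50 kb and 47.0% for FANTOM5 single-center enhancers beyond 50 kb. By distance, the closest gene was among the contacts for 136 of 281 linked enhancers at 50 to 100 kb (48.4%), 120 of 285 at 100 to 200 kb (42.1%), 36 of 134 at 200 to 500 kb (26.9%) and 6 of 49 beyond 500 kb (12.2%). Contacts came from Th1 cells for 727 enhancers, and for 518 from no other cell type, and from embryonic stem cells for 188. None carried the plain label liver. The paper also used a liver set of 4DGenome interactions, which was not separated here. The shares are counts over contacts that the list draws mostly from Th1 cells and were not tested.

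The 788 enhancers were shared unevenly among the 510 closest genes. There were 357 genes with 1 of them and 93 with 2, while 60 genes with at least 3 together held 245. The members of a gene with at least 2 spanned a median of 70331 bp, and those of a gene with at least 3 spanned 116196.5 bp. In 21 of the 153 genes with at least 2, they lay on both sides of the gene. The 307 genes named by no other class of enhancer were the larger part of the 510.

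Foxo1, the insulin-responsive forkhead factor that drives gluconeogenic genes in liver, had 8, as did Nr2f2, the orphan nuclear receptor COUP-TFII of mesenchyme and endothelium. The enhancers of Foxo1 lay from 68213 to 353596 bp away, 1 upstream and 7 downstream, over a span of 429496 bp at chr3:52197038-52626534. The enhancers of Nr2f2 were all upstream, at 257490 to 940725 bp, over 684763 bp at chr7:70624236-71308999, and 4DGenome linked none of the 8 to Nr2f2. Neither gene had an enhancer of another class. Rreb1, a zinc finger factor of the Ras pathway, had 7 of its 10 listed enhancers in this group, including 1 of 21059 bp. Of 5 genes with 6 each, Raph1 and Eea1 had the most gene body reads and are described here, and the others were Gadd45g, Dusp10 and Inhbb. Raph1, an actin regulator at the leading edge of cells, had 6 of 9, all upstream and all linked to Raph1 in 4DGenome. Eea1, a tether of early endosomes, had 6 of 9, 5 of them upstream.

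**Figure D2:**
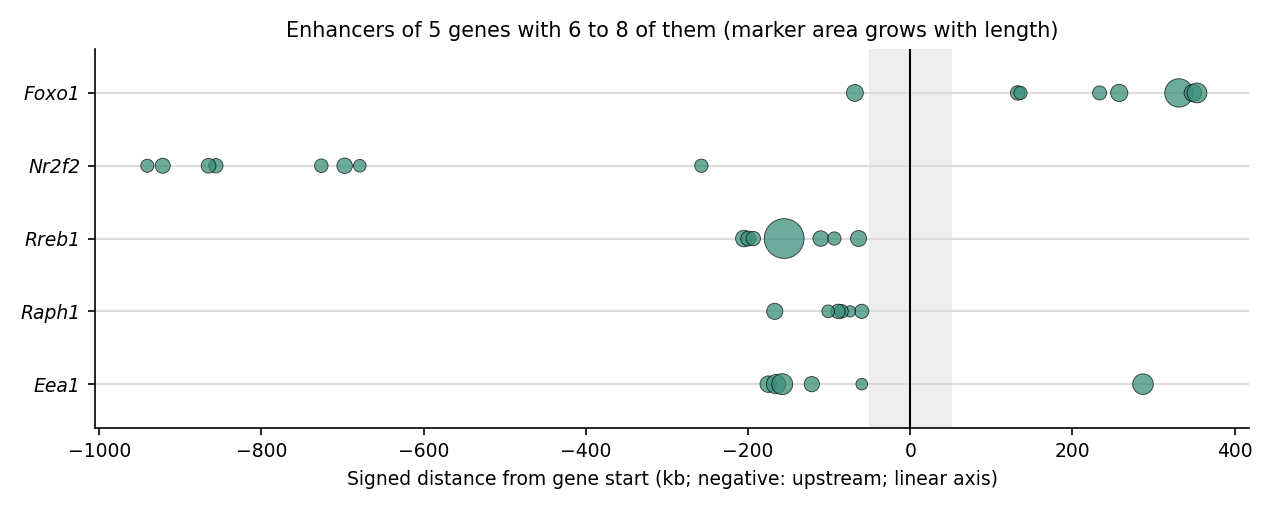
Signed distance in kb from the gene start (negative is upstream, linear axis) of each distal enhancer of Foxo1, Nr2f2, Rreb1, Raph1 and Eea1, with the marker area growing with enhancer length and the excluded 50 kb on either side shaded. The 8 enhancers of Nr2f2 all lie upstream from 257490 bp outward, while 7 of 8 of Foxo1 lie downstream.

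Before the changes, the libraries are given briefly. The reads counted on genes numbered 16628518 to 26190040 per library, and the promoter-proximal share of them was 9.38% and 10.3% in WT and 13.6% and 17.0% in KO. Hepatocyte markers were the strongest of the marker lists in every library, with summed gene body reads of 285235 and 286706 in WT against 137957 and 132824 in KO, and 5 of 7 were called lower. Stellate cell markers summed to 12111 and 13257 in WT against 28313 and 25788 in KO (8 of 8 called higher), and endothelial markers to 61055 and 66546 against 115132 and 102535 (6 of 8 called higher). Kupffer and other leukocyte markers summed to 17691 and 17893 in WT against 23053 and 19401 in KO, with none of 7 called by limma. Of 4 active cholangiocyte markers 2 were called lower, with sums of 3455 and 2960 against 1333 and 1316, and of 6 active erythroid markers 4 were called lower and 1 higher, with sums of 870 and 1056 against 513 and 472. Fewer cells of a type and less RNA per cell cannot be told apart in these bulk nuclei. The gene body of Hdac3 itself, which is read across deleted and kept parts alike and so does not check the deletion, held 665 and 648 reads in WT and 609 and 582 in KO.

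The closest genes had a higher median gene body density than all active genes in every library, a description with no test. So did those of the other classes compared, which stood higher still. Their WT medians were 56.5 and 57.3 reads per kb for new single-center enhancers within 50 kb. They were 51.3 and 52.1 for FANTOM5 single-center enhancers beyond 50 kb, and 80.4 and 82.7 for enhancers with several centers. For the closest genes of the 788 enhancers, median gene body density was 46.1 and 47.5 normalized reads per kb in WT and 48.0 and 46.3 in KO. All 12705 active genes had medians of 37.2 and 38.1 in WT and 36.6 and 34.4 in KO. Genes with at least 3 of the distal enhancers stood at 107 and 105 reads per kb in WT and 88.7 and 82.5 in KO, against 42.8 and 44.2 in WT and 45.0 and 42.1 in KO for genes with 1. Across the 510 genes the number of distal enhancers and the gene body density had a Spearman rho of 0.18, a description over genes that share the same 4 libraries. Median gene body length was 34993 bp for the closest genes and 19243 bp for all active genes. In the other classes compared it ran from 26073 to 35038 bp.

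In gene bodies, changes of the closest genes ran in both directions. A gene was called when its log2 fold change exceeded 0.6 in size with an adjusted p below 0.05, and 67 of 510 (13.1%) were called higher in KO by limma, where 10.4% of all active genes were, and 77 (15.1%) were called lower, where 11.4% of all were. The median gene body log2 fold change was -0.06 for the closest genes, with medians of single KO and WT library pairs from -0.11 to 0.01, and -0.09 for all active genes. KO and WT libraries did not overlap in 172 genes that were higher in KO (33.7%, against 27.6% of all active genes) and 212 that were lower (41.6%, against 42.8%). For the new single-center enhancers within 50 kb, 12.7% of 620 closest genes were called higher and 15.5% lower. For FANTOM5 single-center enhancers beyond 50 kb, 29 of 191 were called higher and 23 lower, and for those with several centers 8.05% of 236 were called higher and 20.8% lower. Some genes belong to more than 1 class. With each library left out in turn, 49 to 77 closest genes were called higher and 69 to 81 lower, and both numbers stayed within 1.5 times the full counts.

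Sod3, Dcn, Gdf10 and Stc1 were among the 5 largest gene body rises of called genes with at least 50 mean reads. Sod3, the extracellular superoxide dismutase, whose enhancer lay 111905 bp downstream and 4131 bp from the start of Ccdc149, had 79.2 and 126 gene body reads in WT and 390 and 436 in KO. Its log2 fold change was 2.03 ± 0.20 (SE, n = 2 libraries per genotype, adjusted p = 2.18e-08). Dcn, the proteoglycan decorin, with an enhancer 165113 bp upstream, had 690 and 803 reads in WT and 2437 and 2136 in KO, a log2 fold change of 1.62 ± 0.12. Both KO libraries were above both WT libraries for each of the 2 genes.

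Gdf10, a secreted member of the TGF-beta superfamily, rose by 1.53 ± 0.20 on the log2 scale, from 70.0 and 97 to 232 and 249 reads. Stc1, the glycoprotein hormone stanniocalcin, rose by 1.33 ± 0.17, from 176 and 237 to 541 and 489 reads. KO and WT did not overlap for either gene. Each of these 4 genes had 1 distal enhancer and no other listed enhancer, and 4DGenome linked the enhancer to the gene only for Sod3. Dcn is also in the list of stellate cell markers, all 8 of which were called higher. What part the change in the stellate and endothelial markers had in these rises was not tested.

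The 5 largest gene body falls, by the same rule, were those of Dio3os, Gadd45g, Ppargc1a, Slc44a3 and Iyd. Dio3os, a noncoding RNA opposite the deiodinase gene Dio3, had 270 and 196 reads in WT and 27.6 and 21.3 in KO, a log2 fold change of -3.19 ± 0.25 (adjusted p = 7.35e-10). Gadd45g, a stress-induced growth arrest gene, had 631 and 1187 reads in WT and 104 and 85 in KO, a log2 fold change of -3.19 ± 0.21, over a gene body of only 800 bp. Ppargc1a, the coactivator PGC-1alpha of gluconeogenesis and mitochondrial biogenesis, had 7414 and 7199 reads in WT and 1770.5 and 1351 in KO, a log2 fold change of -2.24 ± 0.12. In all 3 genes the KO libraries lay far below the WT libraries, and the spread between the WT libraries was widest for Gadd45g.

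Slc44a3, of the choline transporter-like family, fell by 2.04 on the log2 scale (SE 0.15), from 1244 and 1271 to 368 and 254 reads, and Iyd, the iodotyrosine deiodinase, fell by 1.98 (SE 0.18), from 467 and 522 to 151 and 103 reads. Gadd45g had 6 distal enhancers, from 145016 bp downstream outward, and Ppargc1a and Dio3os had 2 each. Among the genes with the most distal enhancers, Foxo1 fell from 12851 and 12210 to 7273 and 7141 reads, a log2 fold change of -0.80 ± 0.11 (adjusted p = 2.4e-06). Nr2f2 rose from 2634 and 2935 to 4582 and 4382 reads, a log2 fold change of 0.69 ± 0.11 (adjusted p = 1.77e-05). Rreb1 (-0.03 ± 0.11), Raph1 (-0.10 ± 0.12) and Eea1 (-0.02 ± 0.11) were not called. The summed reads of hepatocyte markers also fell, and what part that had in these falls was not tested. Gm16551, which was chosen after its values were seen and did not reach 50 mean reads, had the lowest change at -3.32 ± 0.46, from 48.2 and 98 to 3.18 and 10.6 reads.

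**Figure D3:**
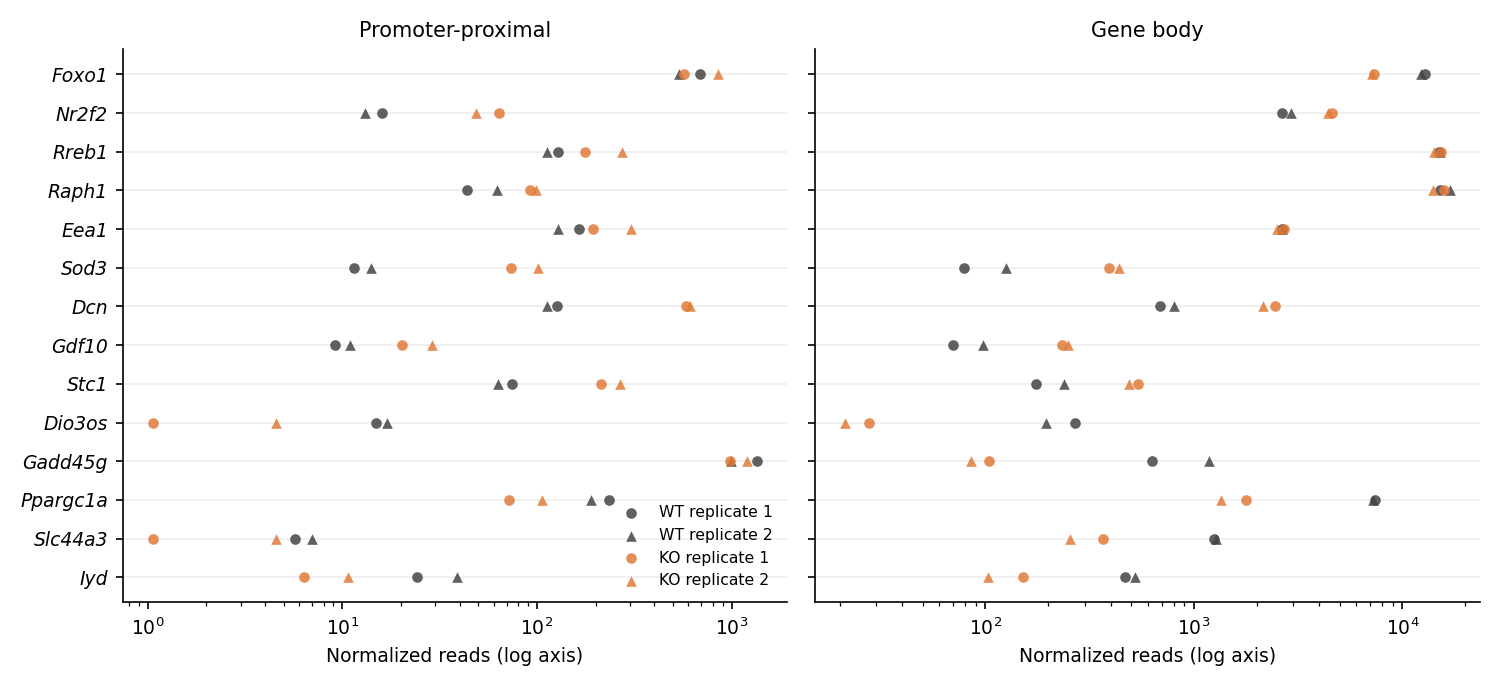
Normalized reads (log axes) in the promoter-proximal window (left) and the gene body (right) of each library, WT in grey and KO in orange, for 5 genes with 6 to 8 distal enhancers (Raph1 and Eea1 taken from 5 tied genes by their reads) and for 4 of the largest called gene body rises and the 5 largest falls. Gene body values of WT and KO separate for Foxo1, Nr2f2 and every gene from Sod3 downward and overlap for Rreb1, Raph1 and Eea1.

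In the promoter-proximal window, the 50 bp with most reads within 500 bp of the start, 134 of the 510 closest genes (26.3%) were called higher in KO by limma and 18 (3.53%) lower, where 25.8% of all active genes were called higher and 2.2% lower. The median log2 fold change was 0.50 in the closest genes and 0.56 in all active genes. For the closest genes it ranged from 0.27 to 0.77 over single KO and WT pairs, and KO replicate 2 stood 0.40 above KO replicate 1. With median-of-ratios factors computed from the gene bodies, the median of the closest genes was 0.58, with 124 called higher and 15 lower. Factors computed from the promoter-proximal reads themselves set the median of all active genes near 0 by construction, and relative to that center 26 closest genes were called higher and 56 lower. When 1 library was left out, its genotype had a single library that was assumed to vary like the other genotype. Calls were then 30 higher and 7 lower without WT replicate 1, 17 and 2 without WT replicate 2, 149 and 12 without KO replicate 1, and 13 and 8 without KO replicate 2, while the median of the closest genes stayed above 0, at 0.54, 0.48, 0.69 and 0.32.

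Among called genes with at least 50 mean reads in the window, the 5 largest promoter-proximal rises were those of Sod3, Dcn, Tcf21, Stc1 and Ccdc80. Sod3 had 11.5 and 14 promoter-proximal reads in WT and 73.2 and 102 in KO, a log2 fold change of 2.67 ± 0.40, or 2.11 above the median of all active genes. Dcn had 127 and 112 reads in WT and 580 and 615 in KO, 1.75 above that median. Tcf21, a transcription factor of mesenchymal cells with an enhancer 256126 bp upstream, had 55.1 and 50 reads in WT and 164 and 273 in KO, 1.43 above the median. Stc1 and Ccdc80, the latter a secreted matrix protein, were 1.22 and 1.21 above it. The KO libraries exceeded the WT libraries in each of these 5 genes, and all 5 were called in the same direction under the median-of-ratios and TMM scalings. Nr2f2 stood 1.31 above the median, with 16.1 and 13 reads in WT and 63.6 and 48.6 in KO, and Foxo1, at 685 and 539 against 572 and 853, was not called. Tcf21 and Ccdc80 were also called higher in gene bodies, by 1.21 ± 0.23 and 1.29 ± 0.12 on the log2 scale.

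The 5 largest promoter-proximal falls by that rule were those of Fbp1, Cyp3a16, Errfi1, Aadac and Ppargc1a. Fbp1, a key enzyme of gluconeogenesis with an enhancer 202790 bp away, had 58.5 and 120 reads in WT and 14.9 and 22.8 in KO, a log2 fold change of -2.13 ± 0.39 (adjusted p = 5.42e-06). Cyp3a16, a cytochrome P450 of a cluster of similar genes among which reads may be split, had 64.3 and 106 in WT and 24.4 and 22.8 in KO. Errfi1, a feedback inhibitor of the EGF receptor with 4 distal enhancers, had 473 and 1033 in WT and 196 and 246 in KO. In all 3 genes WT replicate 2 was the highest library. Without it, with WT at a single library, none of the 3 was called, at log2 fold changes of -1.62, -1.41 and -1.10 and adjusted p of 0.0746, 0.132 and 0.153. Cyp3a16 was not called without KO replicate 2 either, at -1.72 and 0.0557.

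Aadac, an arylacetamide deacetylase of the endoplasmic reticulum, had 190.5 and 160 reads in WT and 69.0 and 59.2 in KO, and Ppargc1a had 235 and 189 in WT and 72.1 and 106 in KO. Both were called lower with all libraries. With a single library left in a genotype, Aadac lost the call without WT replicate 1, WT replicate 2 or KO replicate 2, at adjusted p of 0.115, 0.0624 and 0.0524, although its log2 fold change stayed at -1.31, -1.56 and -1.33. Ppargc1a lost it without WT replicate 1 or WT replicate 2, at adjusted p of 0.169 and 0.0883, with log2 fold changes of -1.10 and -1.42. In gene bodies each of these 5 genes was called lower, with log2 fold changes of -1.59 ± 0.14 for Fbp1, -0.997 ± 0.12 for Cyp3a16, -1.53 ± 0.12 for Errfi1 and -1.52 ± 0.16 for Aadac.

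**Figure D4:**
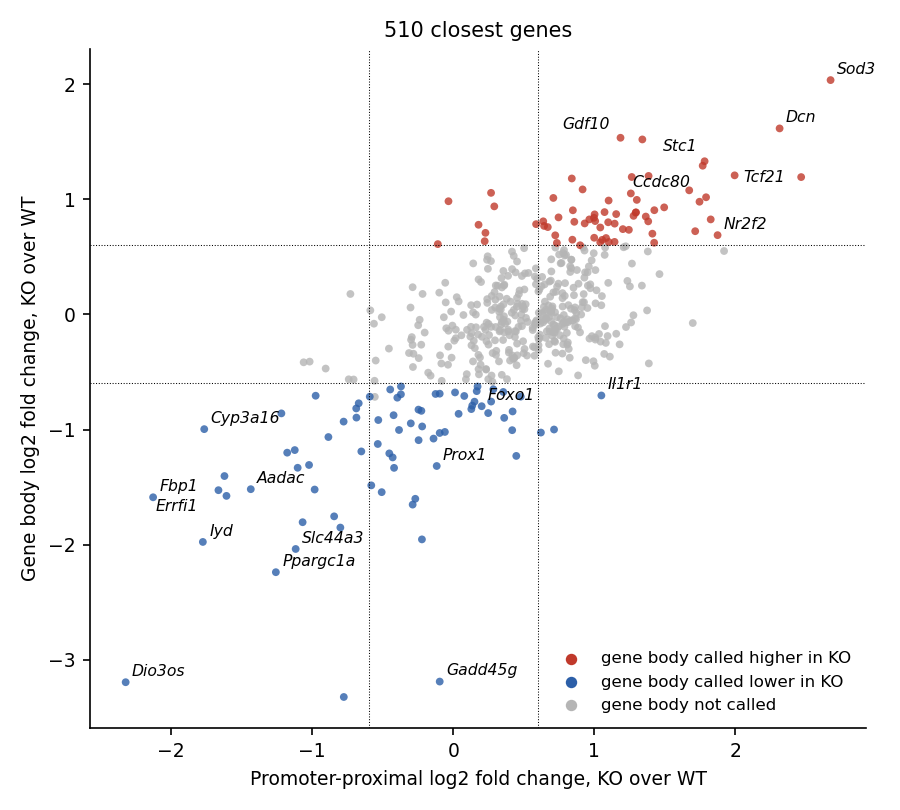
Promoter-proximal (x axis) against gene body (y axis) log2 fold change, KO over WT, of the 510 closest genes, with dotted lines at 0.6 and -0.6 and colour by gene body call. Most points lie right of 0 on the x axis, Sod3 and Dcn are at the upper right, and Gadd45g lies near 0 on the x axis at -3.19 on the y axis.

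Both regions moved in the same direction in most genes called in each. Of the 134 closest genes called higher at the promoter, 48 were also called higher in the gene body, 1 lower and 85 neither way, where 897, 30 and 2355 of the 3282 active genes called higher at the promoter were. Of the 18 called lower, 15 were also called lower in the gene body and none higher, where 246 and 2 of 280 active genes were. The gene that was higher at the promoter and lower in the gene body was Il1r1, a receptor of interleukin 1, with 117 and 49 promoter-proximal reads in WT against 129 and 193 in KO, and 9639 and 7338 gene body reads against 5552 and 4798. Its gene body change lost the call without WT replicate 1 (-0.51) or KO replicate 2 (-0.60). The pausing index divides the density of reads in the promoter-proximal window by that in the gene body, and it was called higher in 45 closest genes (8.82%) and lower in none by limma, where 12.4% of all active genes were called higher and 0.519% lower. Only 1 closest gene had a lower index at an unadjusted p under 0.05. Scaling each region by its own median-of-ratios factors brings the median of all active genes near 0 by construction, and relative to it none was called higher and 1 lower. Calls of a higher index numbered 2 without WT replicate 1 or WT replicate 2, 11 without KO replicate 2 and 201 without KO replicate 1, with 1 genotype left at a single library each time.

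Gadd45g had the largest change of the index. Its promoter-proximal reads were 1355 and 996 in WT and 987 and 1196 in KO, so the groups overlapped, while the gene body fell, and the index rose by 3.09 ± 0.40 on the log2 scale (adjusted p = 4.95e-11). The RefSeq promoter window of the gene, shown because the promoter-proximal reads lie around this start, holds 1 of the 12 motifs, an E-box in capitals, which 7.15% of all RefSeq promoter windows hold.
Gadd45g promoter, chr13:51846425-51846724, plus strand: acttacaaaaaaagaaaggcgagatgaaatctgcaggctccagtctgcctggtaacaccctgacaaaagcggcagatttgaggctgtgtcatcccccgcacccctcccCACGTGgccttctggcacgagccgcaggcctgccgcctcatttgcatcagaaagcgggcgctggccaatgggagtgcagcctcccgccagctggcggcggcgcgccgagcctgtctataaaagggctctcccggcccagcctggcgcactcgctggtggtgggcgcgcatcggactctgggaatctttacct
Il1r1 also rose in the index, by 1.75 ± 0.42. Foxo1 (0.998 ± 0.39, adjusted p = 0.0621) and Nr2f2 (1.19 ± 0.51, adjusted p = 0.0866) were not called.

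**Figure D5:**
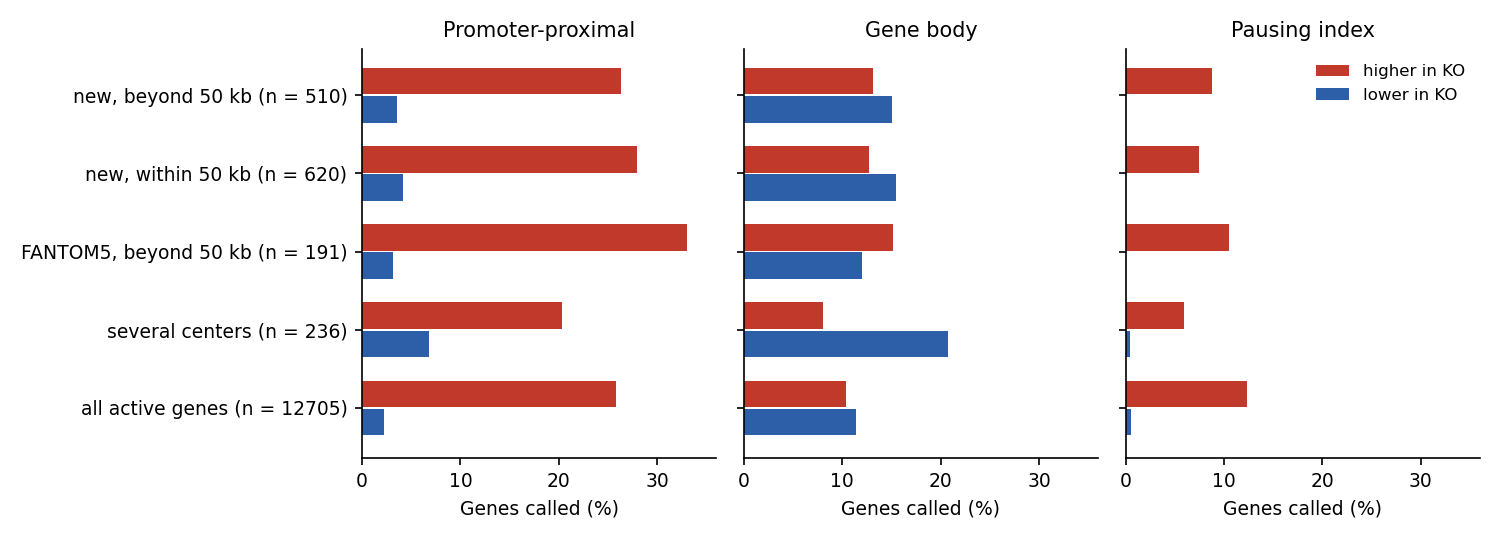
Share of closest genes called higher (red) or lower (blue) in KO, by class of enhancer and for all active genes (bars, percent from 0). The closest genes of the 788 distal enhancers stand at 26.3% and 3.53% at the promoter and 13.1% and 15.1% in the gene body, near those of new enhancers within 50 kb.

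The changes had rank correlations near 0 with the distance and the number of enhancers. Across the 510 genes, the distance of the nearest distal enhancer had a Spearman rho of -0.01 with the gene body change and 0.02 with the promoter-proximal change, and the number of distal enhancers had 0.05 and 0.03. Gene body calls were 13.0% higher and 13.4% lower among the 246 genes with the nearest at 50 to 100 kb, 11.8% and 17.8% among 169 at 100 to 200 kb, and 15.8% and 14.7% among 95 beyond 200 kb. In gene bodies, the 225 closest genes that 4DGenome linked to at least 1 of their own distal enhancers included 29 called higher (12.9%) and 27 lower (12%). Their median log2 change was 0.04. The 285 that it did not link included 38 called higher (13.3%) and 50 lower (17.5%), with a median of -0.10. All 4410 active genes that it linked to any of the 788 were called higher in 9.91% and lower in 10.4%, where 10.4% and 11.4% of all active genes were. These shares were not tested.

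By function, transcription regulators were the list with most closest genes. Of 67 active members of the list of other transcription regulators 22 (32.8%) were closest genes of distal enhancers, where 4.01% of all active genes were. Of 25 liver-enriched transcription factors 5 were. The lists were chosen with earlier results of these data known, so these shares are descriptions of the lists and were not tested. Of the 22 regulators, 6 were called higher in the gene body and 4 lower, and of all 67 in the list 11 were called higher and 13 lower. The rises included Ets1, a factor of endothelial and blood cells with 4 distal enhancers, at 14377 and 14754 reads in WT and 27332 and 24949 in KO (0.84 ± 0.12), and the early response factor Jun, at 513 and 853 against 1257 and 1221 (0.90 ± 0.16). Zeb2, a repressor of epithelial genes, rose by 0.63 ± 0.12, from 17978 and 17662 to 30322 and 25026 reads, but was not past the fold threshold without KO replicate 1 (0.49). The falls were Klf12, a Krüppel-like factor, at 15023 and 12664 against 5151 and 4482 reads (-1.52 ± 0.12), Tsc22d3, a glucocorticoid-induced gene (-0.69 ± 0.11), Foxo1 and Ppargc1a.

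Of the 5 liver-enriched factors, 3 were called lower in the gene body and none higher by limma. Prox1, which maintains hepatocyte identity, had 9374 and 9515 reads in WT and 4041 and 3556 in KO (-1.32 ± 0.11), and its distal enhancer at 115151 bp has the window printed above. Foxa2, a pioneer factor of liver, had 1371 and 1190 against 488 and 651 (-1.18 ± 0.14), and Klf9, a glucocorticoid-responsive factor with 3 distal enhancers, had 5613 and 6269 against 3299 and 3220 (-0.86 ± 0.11). Zbtb20 (0.18 ± 0.12) and Nfib (-0.17 ± 0.11) were not called. Over the whole list of 25, 14 were called lower and 1 higher. Of 35 active nuclear receptors 2 were closest genes, Nr2f2, which was called higher, and Nr3c1, the glucocorticoid receptor, at -0.30 ± 0.12.

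The metabolic lists each held 5 or fewer closest genes, and most of these were called lower in the gene body. Closest genes made up 13.2% of the active glucose and insulin list, 7.41% of the lipid list and 6.25% of the cholesterol and bile acid list. They made up 6.38% of the amino acid list and 3.64% of the xenobiotic list, where 4.01% of all active genes were closest genes. Of 5 genes of glucose and insulin signalling, 4 were called lower in the gene body: Fbp1, the insulin receptor substrate Irs2 (-1.03 ± 0.11), the growth factor Igf1 (-1.23 ± 0.13) and the glycogen-targeting subunit Ppp1r3b (-0.90 ± 0.12), while Trib1 was at 0.03 ± 0.11. In the whole list 23 of 38 were called lower and 2 higher. Of 4 lipid genes, Acsl1, a long-chain acyl-CoA synthetase with 5 distal enhancers, fell from 30488 and 28989 to 12578 and 13294 reads (-1.20 ± 0.12), Elovl5, an elongase of polyunsaturated fatty acids, fell (-1.07 ± 0.12), and Elovl6, an elongase of saturated fatty acids, rose from 539 and 596 to 1165 and 1444 reads (1.19 ± 0.13). Lpgat1 was at -0.16 ± 0.11, and the whole lipid list had 22 of 54 lower and 10 higher. Of 2 cholesterol and bile acid genes, Akr1d1, a reductase of bile acid synthesis, was lower (-1.33 ± 0.12) and Abca1, the cholesterol exporter, was at -0.23 ± 0.12, with 14 of 32 lower and 5 higher in the list.

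Of 3 amino acid genes, Haao of tryptophan breakdown (-1.004 ± 0.11) and the transporter Slc38a2 (-0.65 ± 0.12) were lower, and 41 of the 47 in the list were lower and 1 higher. Glul, glutamine synthetase of hepatocytes around the central vein, with 5 distal enhancers, was at -0.45 ± 0.11 in the gene body, which did not pass the fold threshold, at 5592 and 5025 reads in WT and 4051 and 3737 in KO. Its promoter-proximal reads were 14468 and 13985 in WT and 31233 and 26008 in KO, 0.44 above the median change of all active genes. Both xenobiotic genes were lower, Dpyd of pyrimidine breakdown (-1.21 ± 0.13) and the glutathione transferase Gstk1 (-1.01 ± 0.17), against 15 of 55 lower and 12 higher in the list. Of 61 active plasma protein and acute phase genes, 43 were called lower and 3 higher, and only Il1r1 was a closest gene. No clock gene of 21 active and no hepatocyte marker of 7 was a closest gene of a distal enhancer. As 4.01% of all active genes were, lists this short can hold none at that share.

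Of 10 closest genes in growth factor and Wnt signalling, Spry2, an inhibitor of receptor tyrosine kinase signalling, was called higher in the gene body (0.79 ± 0.18), and Errfi1 and the Wnt receptor Fzd8 (-0.88 ± 0.14) were called lower, where the list of 47 had 6 higher and 9 lower. Of 3 adhesion and matrix genes Fn1, fibronectin, fell from 38848 and 39685 to 16688 and 15071 reads (-1.31 ± 0.12) and the proteoglycan Sdc1 fell (-0.65 ± 0.17), while in the list of 40 active genes 17 were called higher and 6 lower. Of 6 chromatin regulators only the deacetylase Hdac9 was called (0.61 ± 0.12), and it missed the fold threshold without WT replicate 2 (0.52) or KO replicate 1 (0.47). The whole chromatin list of 47 had 3 higher and 2 lower. Among cell type markers, Dcn of stellate cells, Kdr of endothelial cells (0.85 ± 0.11, with 3 distal enhancers) and Ptprc of leukocytes (0.37 ± 0.12, not called) were closest genes. The genes of the 3 farthest enhancers were Ect2, a regulator of cell division (-0.08 ± 0.12), Hpcal1, a neuronal calcium sensor (0.39 ± 0.11), and Zeb2, of which only Zeb2 was called.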

How the data were processed

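PRO-seq libraries of P14 mouse liver nuclei were compared between WT and Hdac3 KO, with 2 libraries each. Per the labels and the study's methods, the authors trimmed reads with cutadapt, aligned them to mm10 with Bowtie2, removed rRNA and poorly mapped reads, and used NRSA, which counts reads per RefSeq transcript in the best 50 bp promoter-proximal window on the coding strand and in the gene body. The deposited signal is a whole read count times 1 factor per library, and the values of WT replicate 2 are deposited as counts with a factor of 1. All values (100%) came out whole, within 0.01, after division. The deposited enhancer list was made by the authors from the reads of all libraries together, and its own gene and database columns were used.

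For each gene the transcript with most promoter-proximal reads was kept, and 12705 of 20642 genes were active, with promoter-proximal reads and over 4 gene body reads per kb. That density was taken on the deposited values. The paper set its threshold after scaling total reads to a common number and counted fewer active genes, so the sets of active genes differ. Limma (version 3.58.1, R 4.3.3) was fitted with trend to log2(value + 1) of all active genes without a block, and fold changes of genes with few reads are understated on that scale. Calls needed a Benjamini-Hochberg adjusted p below 0.05 and a log2 fold change over 0.6 in size. An exact permutation test of 2 against 2 libraries cannot go below 0.333. Alternatives were count models on the recovered reads (DESeq2 1.42.0, edgeR 4.0.16), other scalings, filters and pseudocounts, a replicate block, and leaving out each library. The fit was tested on simulated data.

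The members, the gene lists (functions and cell type markers) and the motifs were chosen with earlier results of these data known. Named genes were 5 with most of the distal enhancers (ties by mean gene body reads), the 5 largest called rises and falls per region with at least 50 mean reads and no overlap of groups, the genes of the 3 farthest enhancers, and the most changed called gene of each list. A gene that this rule selects is not reported here. Other list members are named as the list's closest genes. Sequences, matched by position or symbol (358 of 510 closest genes), and GENCODE M21 starts are annotations of GRCm38. The windows were read from RefSeq promoter tables.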

Additional observations from a re-analysis of the deposited data

How the results depend on the processing

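Of the summary values, 106 kept to within 1.5 times or 1 SD of the reported value under an alternative and 45 did not. Of the named genes' values, 512 kept their direction and side of the threshold, 38 kept the direction only, and none reversed. With median-of-ratios and with TMM scaling within each region, which center each region near 0 by construction, promoter-proximal calls were 26 higher and 56 lower, the median promoter-proximal change was -0.0638 and -0.0642, the median gene body change was 0.0207 and 0.0187, and pausing index calls were 0 and 1 higher and 1 and 1 lower. Factors taken from gene bodies, added after seeing the data, gave 124 higher and 15 lower promoter-proximal calls. Without the filter on active genes (20642 tested), 0 promoter-proximal genes were called higher and 0 lower by limma (143 and 18 at an unadjusted p under 0.05), 11 and 23 in gene bodies, and 0 pausing indices (70 unadjusted). The cause was not tested. A pseudocount of 10 gave 76 higher pausing indices, and a density over 10 per kb gave 1 lower. With no threshold on the fold change, 123 gene bodies were higher and 133 lower. Genes of no other enhancer class numbered 307, so that fewer were called: 80 and 9 at the promoter, 42 and 43 in the gene body and 26 in the index. A distance over 100000 bp left 497 enhancers and 328 closest genes. Of these genes, 86 were called higher and 13 lower at the promoter, and 43 and 53 in the gene body. Over all active genes, 25.8% were called higher and 2.2% lower at the promoter, and 10.4% and 11.4% in the gene body.

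The replicate numbers were treated as names, as the study does not say whether same-numbered libraries were prepared together. The deviations of WT replicate 1 and KO replicate 1 from their group means correlated at -0.105 at the promoter and 0.02 in gene bodies. With 2 libraries per genotype, these correlations cannot settle whether the libraries were paired. With the replicate block, 67 promoter-proximal genes and 9 pausing indices were called higher, and gene body calls stayed at 67 and 77. The crossed pairing, added after seeing the data, gave 201 higher and 24 lower promoter-proximal calls, and 146 higher and 1 lower index. Leaving out each library in turn, which leaves 1 genotype with a single library, gave 13 to 149 higher and 2 to 12 lower promoter-proximal calls, and 2 to 201 higher and 0 to 1 lower indices. edgeR called 132 and 17 at the promoter and 67 and 77 in gene bodies, and DESeq2 112 and 13, and 66 and 73.

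The planned motif search in windows around all enhancer centers was not run, since no genome sequence was used here. With 2 libraries per genotype, differences between pools limit every p. The enhancer list gives no reads per library, so changes at the enhancers themselves were not analysed here. The paper reports such changes over its whole list, with more enhancers higher than lower in KO, and its values were not used here. The closest gene is the gene the list names and not a measured target. Within 50 kb, 64 enhancers had a start of a gene active by the filter used here, which differs from that of the paper.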
